A study of Mus musculus with 7 samples.

Results

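Transcripts of 10 Notch pathway genes were measured in cells sorted from mouse femurs for the surface proteins CD24 and CD29. The genes were the receptors Notch1, Notch2, Notch3 and Notch4, the ligands Jag1 and Dll1, the DNA-binding factor Rbpj and the target genes Hes1, Hey1 and Heyl. They were taken by symbol, and all 10 were found among the 42687 gene identifiers of the count table. The list was drawn up, and so selected on, with the log2 fold changes between the diets in these same 7 libraries in view. Diet differences of these 10 genes are therefore given as a description. How many of them passed the tests run over all genes is stated once, and nothing is read from it.

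The animals were C57BL/6 mice aged 3 months when the diets began. One group ate a low fat diet (LFD) with 10% fat and the other a high fat diet (HFD) with 60% fat, each over 4 weeks. Femurs were broken up and digested with enzymes, and the labels call the cells sorted by flow cytometry skeletal stem cells of bone. There were 4 LFD libraries, numbered 1 to 4, and 3 HFD libraries, numbered 2 to 4. The labels do not say whether each library came from a separate animal, so the spread between libraries may be technical in part.

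Notch receptors are membrane proteins that are activated by ligands on neighbouring cells. Ligand binding leads to cleavage of the receptor, and its intracellular part moves to the nucleus, where it joins Rbpj and turns on target genes. Hes1, Hey1 and Heyl encode repressors of transcription that are widely used as readouts of the pathway. In the skeleton, Notch signals are known to hold back the maturation of progenitors, and in muscle they keep satellite cells, the muscle stem cells, quiescent.

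The stretches of DNA just before the transcription starts are shown for Notch3, the receptor with the largest diet difference of the 3 receptors that were tested, for Notch2, the receptor next to it in level, and for Rbpj. Each run holds the 250 bases before the start given by RefSeq in build GRCm38.p6, read 5′ to 3′ on the strand of the gene. Notch3 lies on the minus strand (chr17:32166891-32167140), and Notch2 (chr3:98013288-98013537) and Rbpj (chr5:53590096-53590345) lie on the plus strand. Capitals mark matches to TGGGAA, the core letters bound by Rbpj, or to CACGNG, letters bound by Hes and Hey proteins, each searched on both strands.
Notch3: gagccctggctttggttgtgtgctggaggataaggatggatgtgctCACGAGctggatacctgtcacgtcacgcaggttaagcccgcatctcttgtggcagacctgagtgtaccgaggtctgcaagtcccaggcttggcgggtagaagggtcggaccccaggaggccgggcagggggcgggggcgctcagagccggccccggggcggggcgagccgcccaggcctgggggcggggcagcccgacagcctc
Notch2: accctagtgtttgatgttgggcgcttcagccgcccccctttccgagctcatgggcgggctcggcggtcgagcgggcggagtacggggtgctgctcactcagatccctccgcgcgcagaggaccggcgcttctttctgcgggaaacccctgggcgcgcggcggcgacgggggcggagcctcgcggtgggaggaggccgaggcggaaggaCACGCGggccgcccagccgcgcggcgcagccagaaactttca
Rbpj: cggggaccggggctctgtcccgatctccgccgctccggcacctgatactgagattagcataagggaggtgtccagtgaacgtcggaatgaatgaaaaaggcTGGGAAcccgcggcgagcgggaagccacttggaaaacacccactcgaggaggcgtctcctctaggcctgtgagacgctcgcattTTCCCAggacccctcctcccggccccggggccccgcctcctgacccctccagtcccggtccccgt
Of the 10 genes 7 had an entry in the promoter table, with 9 windows in all, and Hes1, Hey1 and Heyl had none. TGGGAA or its reverse complement TTCCCA was found in the 2 overlapping windows of Rbpj and in no window of the other 6 genes. It was present in 21.6% of all 32817 windows of this length. CACGNG was found in windows of Notch2, Notch3, Jag1 and Dll1, against 23.5% of all windows, and no match of one motif overlapped a match of the other. These matches describe letters in the DNA and were not measured as bound sites.

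Total counts per library ranged from 17391613 to 24681838. The 2 diets also differed in transcripts tied to sex. Counts of Xist were 257 to 526 under LFD and 0 in all HFD libraries, while the sum of 4 genes of the Y chromosome was 1 to 5 under LFD and 2494 to 3405 under HFD. The labels give no sex, and diet and sex cannot be told apart in any difference described here. The sort genes were both transcribed, with Cd24a at 3471 ± 1448 CPM under LFD and 2077 ± 1161 CPM in HFD and Itgb1, which encodes CD29, at 426 ± 57.8 and 446 ± 59.8 CPM. CPM are counts scaled to a common library size by the trimmed mean of M-values (TMM), and each mean carries the SD over 4 LFD or 3 HFD libraries. Genes of other cells were present, with an erythroid list of 9 genes taking 10.2% to 14.2% of counts in LFD and 2.58% to 10.4% in HFD.

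Notch3 was lower in every HFD library than in any LFD library. Per length of exon it was the highest of the 4 receptors in all 7 libraries, while in CPM, which is not corrected for length, it lay below Notch2 in HFD 2 and HFD 3. Notch3 (ENSMUSG00000038146, chromosome 17, 32120820 to 32166852 of mm10, minus strand) encodes a receptor best known from the muscle cells and pericytes of vessel walls. It measured 115, 112, 125 and 98.3 CPM in LFD 1 to 4 and 33.5, 32.9 and 46.9 CPM in HFD 2 to 4. The groups did not overlap, and the lowest LFD library was above the highest HFD library by more than the range within either group. The means were 112 ± 10.8 CPM under LFD and 37.8 ± 7.89 CPM in HFD, a log2 fold change of -1.57 ± 0.21 (SE). These values rested on 1787 to 2938 counts per LFD library and 682 to 981 per HFD library.

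Notch2 and Notch1 did not share this separation. Notch2 (ENSMUSG00000027878, chromosome 3, 98013527 to 98150361), a broadly expressed receptor, measured 39.9, 47.5, 76.8 and 38.2 CPM in LFD 1 to 4 and 43.7, 38.7 and 44.6 CPM in HFD 2 to 4. All HFD values lay within the LFD range, and LFD 3 stood above the other 6 libraries. The log2 fold change was -0.26 ± 0.28, and it was 0.02 without LFD 3. Notch1 (ENSMUSG00000026923, chromosome 2, 26457903 to 26516663), the receptor needed for T cell fate, measured 12.6, 9.46, 23.0 and 15.7 CPM under LFD and 15.9, 21.2 and 6.02 CPM in HFD. The groups overlapped, the log2 fold change was -0.08 ± 0.48, and its sign turned without LFD 3 (0.20) or without HFD 4 (0.30). The T lineage list summed to 1.52 to 12.0 CPM under LFD and 5.30 to 6.57 CPM under HFD, with Cd3g, Cd8a, Bcl11b and Ptcra at 0 in all 7 libraries.

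Notch4 was at the edge of detection. Notch4 (ENSMUSG00000015468, chromosome 17, 34564268 to 34588503) encodes a receptor known from endothelial cells. It had 2, 0, 0 and 4 counts in LFD 1 to 4 and 9, 10 and 5 counts in HFD 2 to 4, and it did not pass the filter on low counts. In CPM it was at most 0.198 under LFD and at least 0.239 under HFD, so that the groups did not overlap. A count of 0 has an exact Poisson 95% interval of up to 3.69 counts, and the 10 counts of HFD 3 have one of 4.80 to 18.4, so that the gene was not measured with useful precision. Such intervals cover counting error only.

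**Figure D1:**
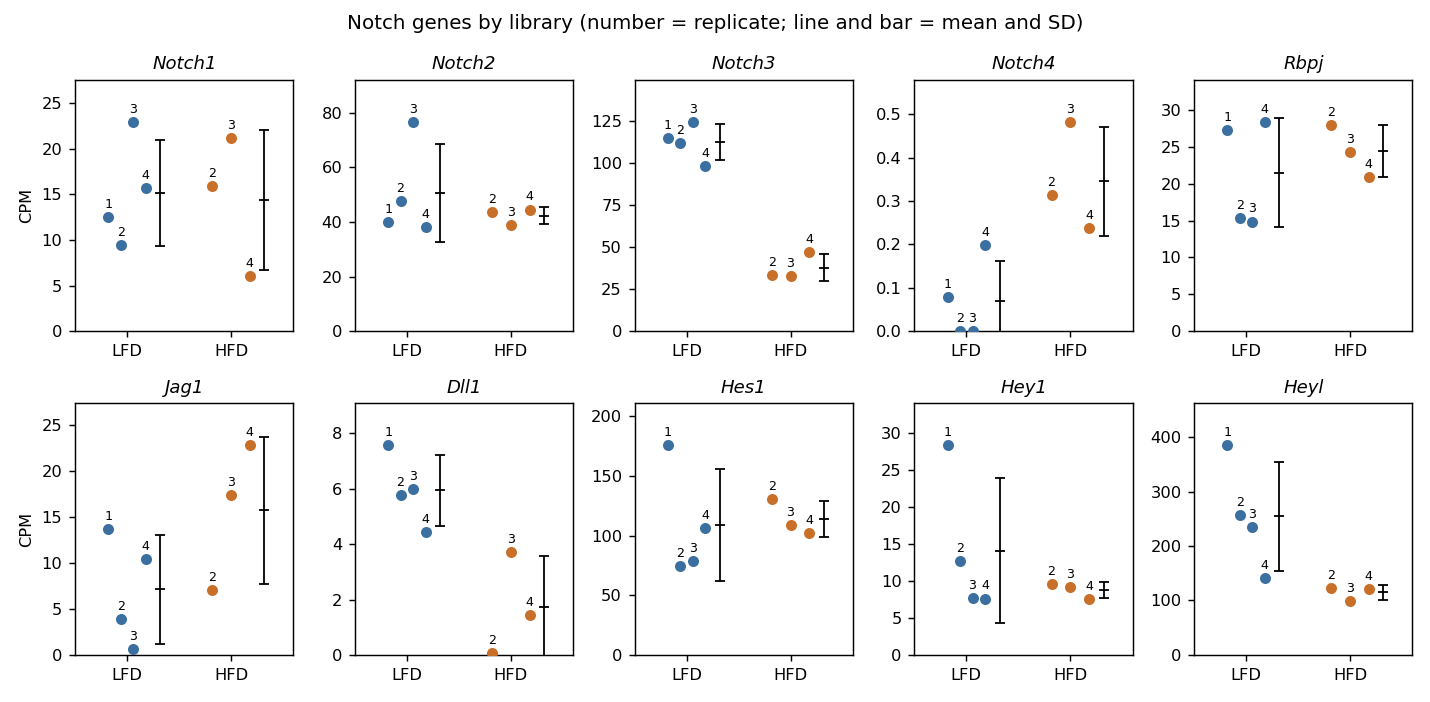
CPM of the 10 Notch genes (vertical axes from 0, 1 scale per gene) in the LFD and HFD libraries, with each point labelled by its replicate number and the mean and SD beside each group. Notch3 lies at 98.3 CPM or more in LFD and at 46.9 CPM or less in HFD, and Heyl and Dll1 are the other tested genes whose groups do not overlap.

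The make-up of the receptor transcripts differed with Notch3. To compare receptors, CPM were divided by the length of each gene's exons in kilobases. Notch3 made up 75.5%, 73.2%, 63.8% and 72.3% of the summed per-length level of the 4 receptors in LFD 1 to 4 and 44.3%, 44.2% and 55.8% in HFD 2 to 4. Notch2 made up 19.7% to 29.5% in LFD and 39.0% to 43.3% in HFD, and Notch1 3.51% to 6.69% and 4.07% to 16.2%. Notch4 stayed at or below 0.650% in all 7 libraries. The ratio of Notch3 to Notch2 within a library, which does not depend on library scaling, was 3.83, 3.14, 2.16 and 3.43 in LFD 1 to 4 and 1.02, 1.13 and 1.40 in HFD 2 to 4. The summed receptor level was 16.8 to 24.1 CPM per kb in LFD and 9.22 to 10.4 CPM per kb in HFD. Notch3 thus was the leading receptor in LFD, while in HFD 2 and HFD 3 Notch3 and Notch2 stood at nearly the same level. As Notch2 and Notch1 had log2 fold changes of -0.26 and -0.08, the diet differences in these shares, sums and ratios restate the lower Notch3. They are no separate result.

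**Figure D2:**
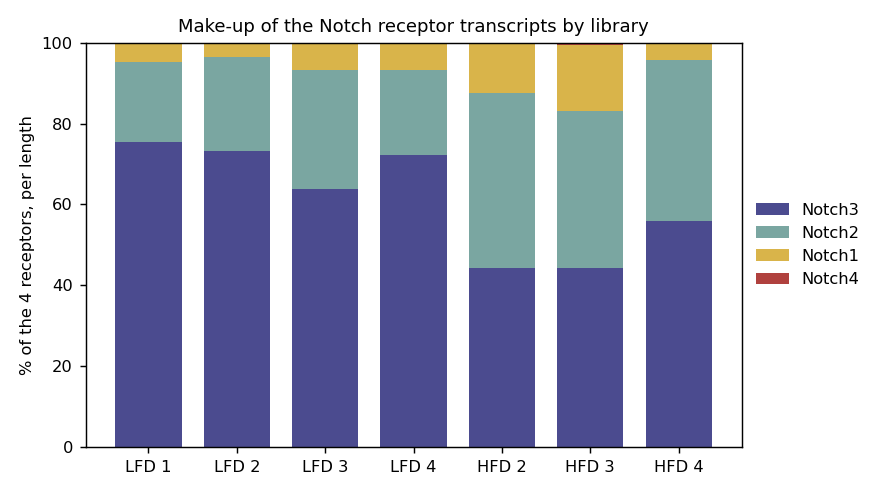
Share of each receptor (percent of the summed per-length level of Notch1 to Notch4, vertical axis) in each of the 7 libraries. Notch3 takes 63.8% to 75.5% of the bar in LFD and 44.2% to 55.8% in HFD, and Notch4 is hardly visible.

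The ligands varied widely between libraries. Jag1 (ENSMUSG00000027276, chromosome 2, 137081456 to 137116644), a ligand of the Jagged type, measured 13.6, 3.88, 0.685 and 10.4 CPM in LFD 1 to 4 and 7.03, 17.3 and 22.7 CPM in HFD 2 to 4. Its LFD libraries thus spanned a 19.9-fold range, and HFD 2 lay inside it. The lowest of these values, in LFD 3, rested on 11 counts. The log2 fold change was 1.13 ± 0.85, and it was 0.74 without LFD 3.

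Dll1 (ENSMUSG00000014773, chromosome 17, 15367354 to 15376872), a ligand of the Delta type, measured 7.57, 5.76, 5.98 and 4.45 CPM in LFD 1 to 4 and 0.0699, 3.72 and 1.43 CPM in HFD 2 to 4. The groups did not overlap, but HFD 3 was close to LFD 4 and HFD 2 rested on 2 counts (exact Poisson interval 0.242 to 7.22). The log2 fold change was -1.77 ± 1.04. HFD 2 also had the smallest erythroid share (2.58%), and with that share in the model the log2 fold change was -0.13. Without HFD 3 it was -2.99 and without HFD 2 it was -1.21. Per length, the mean level of Jag1 was 1.23 ± 1.01 CPM per kb under LFD and 2.69 ± 1.37 under HFD, and that of Dll1 was 1.41 ± 0.303 and 0.413 ± 0.437. Within libraries Jag1 was 0.0830 to 1.69 times Dll1 in LFD and 3.38 to 72.8 times Dll1 in HFD, so that Jag1 was the higher ligand in 5 of 7 libraries.

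Rbpj differed little. Rbpj (ENSMUSG00000039191, chromosome 5, 53466152 to 53657362) measured 27.4, 15.4, 14.9 and 28.4 CPM in LFD 1 to 4 and 28.0, 24.3 and 20.9 CPM in HFD 2 to 4. All HFD values lay within the LFD range, and the log2 fold change was 0.18 ± 0.31, with the sign turned by the erythroid share in the model (-0.13). Of the words of 50 bases in the annotated transcripts of Rbpj, 10.6% also occurred in another gene's transcripts, mostly those of the pseudogene Rbpj-ps3. Reads from such stretches cannot be assigned to Rbpj with certainty. The share was 0% for Hes1, Hey1, Heyl, Jag1 and Notch4. For Notch1 (9.11%), Notch2 (3.76%), Notch3 (4.93%) and Dll1 (16.1%) nearly all shared words lay in overlapping non-coding or unclassified genes, none of which had more than 69 counts over the 7 libraries. How reads of these stretches were assigned was not given, so such low counts do not show that none were lost.

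The 3 target genes did not share a pattern. Heyl (ENSMUSG00000032744, chromosome 4, 123233556 to 123249875), a target that is strongly expressed in satellite cells and vessel wall cells, measured 385, 257, 234 and 141 CPM in LFD 1 to 4 and 123, 99.3 and 122 CPM in HFD 2 to 4. The groups did not overlap, with LFD 4 close to the HFD libraries and LFD 1 far above the rest. The means were 254 ± 100.5 CPM and 115 ± 13.4 CPM, a log2 fold change of -1.15 ± 0.34.

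Hes1 (ENSMUSG00000022528, chromosome 16, 30064384 to 30067796), the most widely used of the targets, measured 176, 74.9, 78.7 and 106 CPM in LFD 1 to 4 and 131, 109 and 102 CPM in HFD 2 to 4. All HFD values lay within the LFD range. The log2 fold change was 0.06 ± 0.32 and was negative without LFD 2, LFD 3 or HFD 2. Hey1 (ENSMUSG00000040289, chromosome 3, 8663359 to 8667256), which is also induced by bone morphogenetic proteins, measured 28.3, 12.7, 7.66 and 7.61 CPM under LFD and 9.58, 9.18 and 7.55 CPM in HFD. Its log2 fold change of -0.68 ± 0.52 rested on LFD 1 and was -0.08 without it. LFD 1 was the highest library for Heyl, Hes1, Hey1 and Dll1. In the 3 HFD libraries the targets varied little, with the highest value 1.24 to 1.28 times the lowest.

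Within a library, the balance of the 2 leading targets also differed. Per length, Heyl was 0.873, 1.37, 1.19 and 0.530 times Hes1 in LFD 1 to 4 and 0.376, 0.364 and 0.475 times Hes1 in HFD 2 to 4. Heyl against Notch3 was 2.27 to 5.31 in LFD and 4.10 to 5.84 in HFD, ranges that overlapped. Hes1 against Notch3 was 2.51 to 6.09 in LFD and 8.64 to 15.5 in HFD, ranges that did not. There was thus more Hes1 per Notch3 in each HFD library than in any LFD library. As Hes1 itself had a log2 fold change of 0.06, the ratios with Hes1 restate the lower Notch3 and Heyl. They are no separate result.

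Per length, Hes1 and Heyl had the highest levels and Notch4 the lowest. Of the 9 neighbouring pairs in the order of levels, 3 kept the same direction in all 7 libraries and passed a test within libraries. The mean per-length levels over all 7 libraries were 54.5 ± 16.8 CPM per kb for Hes1, 38.0 ± 20.2 for Heyl, 9.94 ± 5.05 for Notch3, 4.36 ± 1.256 for Notch2 and 3.61 ± 2.30 for Hey1. Below them came Rbpj (1.78 ± 0.455 CPM per kb), Jag1 (1.86 ± 1.33), Notch1 (1.04 ± 0.426), Dll1 (0.981 ± 0.627) and Notch4 (0.0233 ± 0.0220). The order is that of the mean log2 level, after adding 0.5 counts, which is why Rbpj precedes Jag1. Neighbours were compared within libraries by an exact two-sided sign-flip permutation test, whose smallest p over 7 libraries is 0.0156, adjusted over the 9 neighbouring pairs. That p is reached when all 7 libraries share 1 direction, and it does not measure how far apart 2 genes lie. The order itself was taken from the same values, and libraries of both diets were pooled.

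Heyl was higher than Notch3 in 7 of 7 libraries by 1.98 ± 0.48 (SD of the difference) on the log2 scale (exact permutation, adjusted p = 0.0469). Notch3 was higher than Notch2 in 7 of 7 libraries by 1.03 ± 0.79, and Hey1 was higher than Rbpj in 7 of 7 by 0.89 ± 0.72, both with the same adjusted p. In HFD 2 and HFD 3, however, Notch3 was only 1.02 and 1.13 times Notch2. The other 6 neighbouring pairs did not pass, among them Hes1 and Heyl (0.62 ± 0.79, exact permutation adjusted p = 0.197) and Dll1 and Notch4 (5.10 ± 3.40, exact permutation adjusted p = 0.0703). With the longest transcript in place of all exons as the length, Hey1 and Rbpj no longer passed (0.11, exact permutation adjusted p = 0.944). With that length Rbpj was instead higher than Notch1, its next neighbour, in 7 of 7 libraries.

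**Figure D3:**
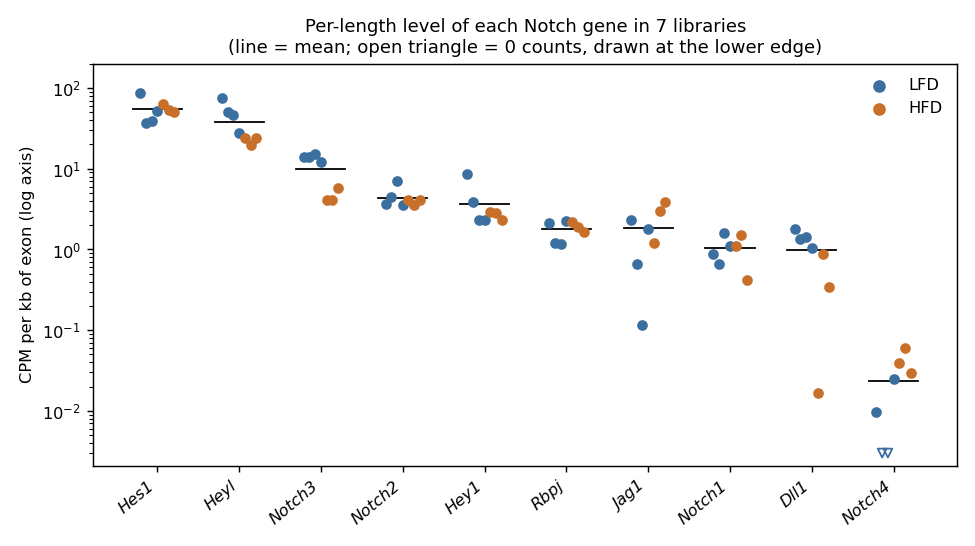
Per-length level (CPM per kb of exon, log axis) of the 10 Notch genes in the 7 libraries, ordered by mean log2 level, with a line at each mean and open triangles for 0 counts. Heyl lies above Notch3 and Notch3 above Notch2 in each library, while the genes from Rbpj to Dll1 overlap.

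Marker genes of muscle progenitors were present, and Myf5 and Myod1 had lower values in each HFD library, as Notch3 and Heyl did. Myf5, a transcription factor of satellite cells and myoblasts, measured 111, 72.8, 87.2 and 63.4 CPM in LFD 1 to 4 and 35.3, 37.0 and 38.9 CPM in HFD 2 to 4. Myod1, another muscle-determining factor, measured 49.2, 30.7, 86.7 and 31.9 CPM under LFD and 16.3, 15.6 and 8.36 CPM in HFD. The groups did not overlap for either gene. Pax7, which defines satellite cells, measured 7.89 to 21.6 CPM under LFD and 2.03 to 10.99 CPM in HFD, so that its groups overlapped. None of these 3 passed edgeR's quasi-likelihood test with Benjamini-Hochberg adjustment (log2 fold change -1.17 ± 0.23 and adjusted p = 0.230 for Myf5, -1.89 ± 0.45 and 0.285 for Myod1, -1.13 ± 0.60 and 0.693 for Pax7). Of the 8 genes of the satellite and muscle list 5 had lower and 2 higher means in HFD, and Myh4 was at 0 counts in all libraries. The summed level of the list was 243 to 472 CPM under LFD and 142 to 146 CPM in HFD.

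Markers of vessel wall cells were mixed. Acta2, the smooth muscle actin, measured 73.99 to 171 CPM under LFD and 20.6 to 40.3 CPM in HFD. Cspg4, which encodes NG2, measured 247 to 396 CPM and 417 to 585 CPM, the opposite direction. Rgs5, a defining pericyte gene, was at 0 to 2.08 CPM under LFD and 1.64 to 3.95 CPM in HFD, and Higd1b was at or below 0.0966 CPM in all 7 libraries. Of the 10 genes of the mural list 6 had higher and 4 lower means in HFD, and the summed level was 469 to 814 CPM under LFD and 560 to 732 CPM in HFD, ranges that overlapped. Cspg4 made up 247 to 396 CPM of the mural sum in LFD and 417 to 585 CPM in HFD, the largest part of the sum in each library. The overlap of the sums thus rested on this gene. Acta2, Tagln and Des were lower in HFD without overlap of the groups, and Cspg4 and Abcc9 were higher without overlap. Des is on both the mural and the muscle list and made up 120 to 272 CPM of each sum in LFD and 73.7 to 76.2 CPM in HFD.

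For some lists of other cell types the summed levels of the diets did not overlap. The endothelial list, whose marker Cdh5 was at 0 to 4.10 CPM, summed to 19.6 to 42.0 CPM under LFD and 15.3 to 16.3 CPM in HFD, with 8 of 10 genes lower. The marrow stromal list summed to 549 to 806 CPM under LFD and 1825 to 3096 CPM in HFD, with 9 of 10 genes higher. The neutrophil list summed to 953 to 5397 CPM and 8426 to 16402 CPM, and the monocyte and macrophage list to 122 to 784 CPM and 1601 to 2068 CPM. The sums overlapped for the chondrocyte list (22547 to 45903 CPM against 35293 to 60703 CPM under HFD), the osteoblast list (12435 to 28220.3 against 26063 to 41139), the Schwann cell list (499.99 to 721 against 440.3 to 758) and the B lineage list (10.9 to 69.7 against 69.3 to 127). They also overlapped for the proliferation list (1959 to 5252 CPM against 989.8 to 3426 CPM), of which 10 of 10 genes had lower means in HFD. The part of these cell types in the differences of Notch3, Heyl and Dll1 was not tested. In such bulk samples, fewer cells of a type and less RNA per cell cannot be told apart.

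**Figure D4:**
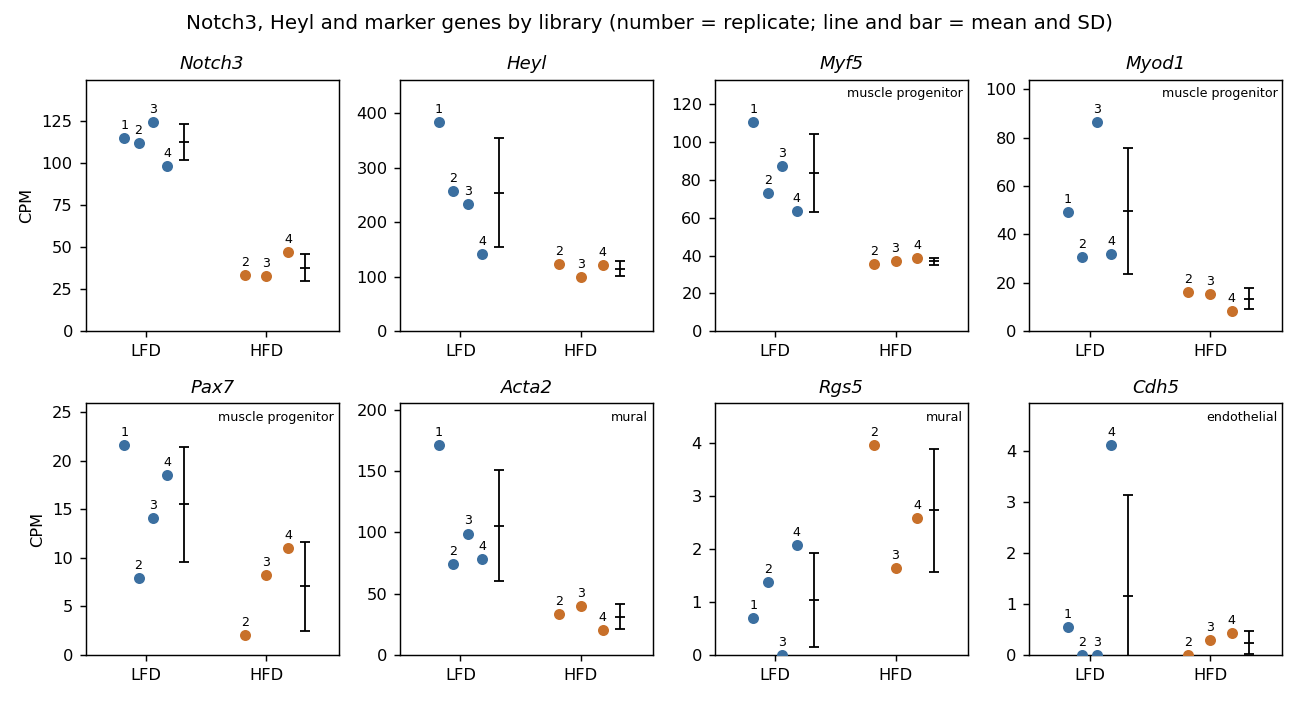
CPM of Notch3 and Heyl beside muscle progenitor genes (Myf5, Myod1, Pax7), mural genes (Acta2, Rgs5) and the endothelial gene Cdh5 (vertical axes from 0, 1 scale per gene) by library, with replicate numbers and the mean and SD of each group. Myf5 lies at 63.4 CPM or more in LFD and at 38.9 CPM or less in HFD, while Rgs5 reaches 3.95 CPM and Cdh5 4.10 CPM at most.

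The 5 genes whose profile over the 7 libraries was most like that of Notch3 all had lower means in HFD, with Myf5 at rank 5. Notch3 was selected with its diet difference in view. Genes with a like difference therefore lie close to it, and nothing is read from this likeness. Likeness was the root mean square difference between log2 CPM profiles, each centred on its own mean, among 8990 genes with a mean of at least 8 CPM. The 5 closest were Iffo1 (0.25), Lyrm9 (0.28), Zfp874b (0.29), Cyp2d22 (0.31) and Myf5 (0.31), against a median of 0.90 over all genes compared. Of these, Iffo1 measured 20.8 ± 4.38 CPM under LFD and 8.31 ± 0.363 CPM in HFD. The 5 closest to Hes1 were Vti1b (0.08), Hdac3 (0.08), Cav2 (0.09), Oaf (0.10) and Sugt1 (0.10), against a median of 0.55. All 5 were highest in LFD 1, as was Hes1. Among the nearest genes for both Notch3 and Hes1, none belonged to the Notch pathway lists.

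In the test over all genes, edgeR called 5 of 14304 genes (0.035%) at an adjusted p of 0.05, and 0 of the 9 Notch genes that passed the filter on low counts. The genes called included Xist and the Y chromosome genes Ddx3y, Uty and Eif2s3y (edgeR adjusted p = 0.0252, 0.0015, 0.0139 and 0.0304). Most of the 5 calls were thus genes tied to sex, and diet and sex cannot be told apart here. At an unadjusted p under 0.05 edgeR gave Notch3 and Heyl, 2 of the 9, against 7.53% of all genes. Both were lower in HFD (2.35% of all genes lower, 5.18% higher). DESeq2 called Notch3 and Heyl, against 2.25% of all genes, and limma-voom called Notch3, against 0.182%. Of the 9 genes 6 were lower in HFD, against 48.5% of all genes, and 3 were lower without overlap of the groups, against 3.47%, with 0 higher without overlap, against 8.4%. Notch4, which did not pass the filter, is outside these counts, and its few counts gave higher CPM in each HFD library than in any LFD library. The median log2 fold change was -0.26 for these genes and 0.02 for all genes tested. As the list was drawn up with this comparison known, nothing is read from these counts.

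Other genes of the pathway, listed by role, showed no common direction. Of 61 listed genes 54 were tested, and 26 were higher and 28 lower in HFD, with a median log2 fold change of -0.04. edgeR called 0 of them at an adjusted p of 0.05, with 3 at an unadjusted p under 0.05 (7.53% of all genes tested), DESeq2 called Dtx4 alone and limma-voom 0. The groups did not overlap for 5 of the 54 (Lfng, Furin, Numb and Spen higher, Dtx4 lower), against 11.9% of all genes.

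Among regulators of receptor turnover, Dtx4, a ubiquitin ligase of the Deltex family, measured 142, 161, 194 and 178 CPM in LFD 1 to 4 and 78.7, 106 and 96.8 CPM in HFD 2 to 4 (log2 fold change -0.85 ± 0.20, edgeR adjusted p = 0.285). Numb, which restrains Notch signalling in dividing cells, measured 26.7, 9.90, 9.96 and 21.1 CPM under LFD and 35.4, 36.5 and 43.9 CPM in HFD (log2 fold change 1.19 ± 0.39, edgeR adjusted p = 0.494). Neither gene passed, and their groups did not overlap. Of the 12 tested genes of this role 4 were higher and 8 lower.

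Enzymes that process the receptors ranged widely in level, from Mfng, at 0 counts in LFD 2 and LFD 3, to Adam10, at up to 334 CPM. All 5 glycosylation genes had positive log2 fold changes, with a median of 0.15 and 0 at an unadjusted p under 0.05 by edgeR. Lfng, a fringe enzyme that changes which ligands a receptor answers to, measured 2.46, 0, 1.68 and 2.67 CPM in LFD 1 to 4 and 5.46, 7.20 and 11.04 CPM in HFD 2 to 4, without overlap (edgeR adjusted p = 0.685). Mfng was at 0.491 ± 0.567 and 1.32 ± 0.787 CPM, and Poglut1, which adds glucose to the receptors, at 53.5 ± 7.35 and 57.9 ± 14.9 CPM. Of 9 cleavage genes 5 were higher and 4 lower. Furin, the protease that cuts receptors before they reach the surface, measured 78.6 ± 13.9 and 115 ± 10.8 CPM (log2 fold change 0.55 ± 0.20, edgeR adjusted p = 0.578). Adam10, which makes the first cut after ligand binding, measured 262 ± 95.0 and 178 ± 65.3 CPM, and Psen2, a subunit of gamma-secretase, 15.6 ± 4.09 and 9.78 ± 4.36 CPM.

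Other ligands were scarce, with no value above 5.35 CPM in any library. Jag2 measured 1.95 ± 2.35 CPM under LFD and 0.918 ± 0.674 CPM under HFD. Dlk1 measured 2.49 ± 2.01 and 1.71 ± 1.35 CPM, and Dlk2 0.210 ± 0.420 and 0.623 ± 0.312 CPM. Dll3 was at 0 counts in all libraries, and Dll4, the ligand of vessel sprouting, had 0, 0, 5 and 15 counts in LFD 1 to 4 and 1, 0 and 0 counts in HFD 2 to 4.

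Among nuclear cofactors and further targets, Spen was the one gene whose groups did not overlap. Of 8 co-activators 4 were higher and 4 lower, with Ep300 at a log2 fold change of 0.43 ± 0.29, Maml3 at 1.32 ± 1.66 and Snw1 at -0.07 ± 0.17. Of 10 co-repressors 4 were higher and 6 lower, with Spen, a large repressor that binds Rbpj, at 0.55 ± 0.29, Cir1 at -0.83 ± 0.45 and Ctbp1 at -0.49 ± 0.31. Of 10 further targets 6 were tested, 2 higher and 4 lower, with Hes6 at -0.61 ± 0.28 and the cell cycle inhibitor Cdkn1a at 0.42 ± 0.36. Hes2 and Hes5 were at 0 counts in all libraries. No gene of these 3 roles had an unadjusted p under 0.05 in the edgeR test, and 0 passed the adjusted threshold with DESeq2 or limma-voom.

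**Figure D5:**
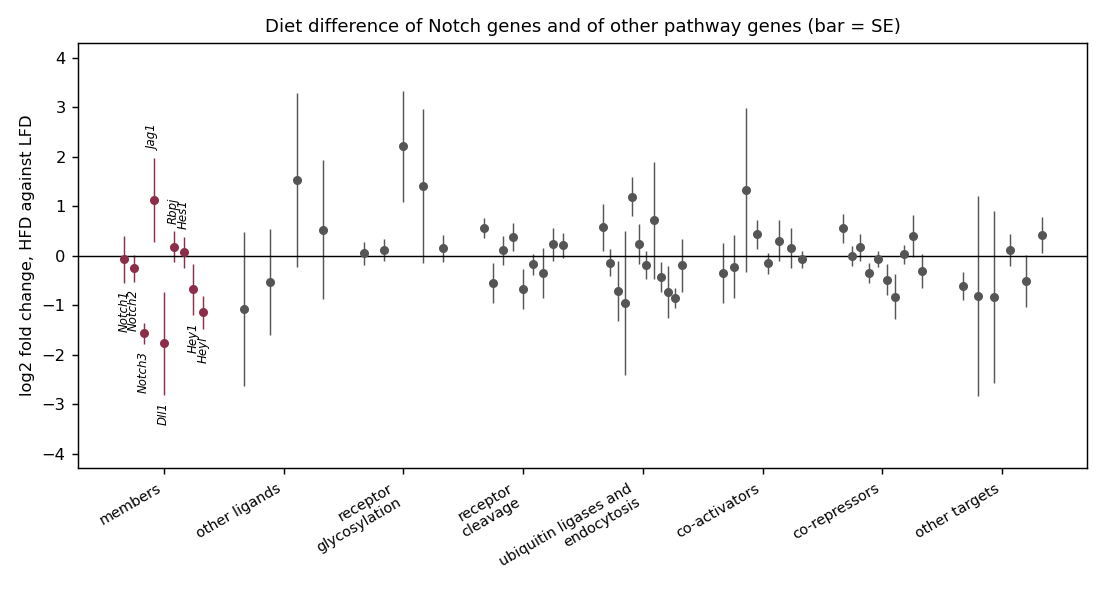
Log2 fold change of HFD against LFD (vertical axis, bars are SE) for the 9 tested Notch genes described above, labelled, and for the 54 tested genes of 7 other roles in the pathway. Notch3 (-1.57 ± 0.21), Dll1 (-1.77 ± 1.04) and Heyl (-1.15 ± 0.34) lie lowest among the labelled genes. Genes of the other roles lie on both sides of 0, except the 5 of receptor glycosylation, which all lie above it. The 6 tested further targets have a median of -0.56.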

How the data were processed

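The authors deposited raw counts per Ensembl gene for 7 libraries. Per the submitters' processing notes, the tools were STAR 2.5.2b, HTSeq 0.11.2, cutadapt, DESeq2 and bcl2fastq with build mm10, while their roles, the strand setting and the annotation release were not given in the sources used here. Without a known strand setting, reads of antisense partners cannot be told apart. Per the labels' protocols, libraries were made with low-input SMART-Seq and Nextera XT kits.

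The genes and lists were chosen with earlier results of these data known. Symbols matched 42250 of 42687 identifiers, and gene models came from GENCODE M21. The diets were compared over all genes with edgeR 4.0.16 (TMM, filterByExpr, robust quasi-likelihood fit, Benjamini-Hochberg adjustment at 0.05), leaving 14304 genes. SE is the size of the log2 fold change over the square root of the F statistic. On simulated counts over 13565 genes this recovered 3.03% of genes changed by log2 1, 62.7% by 2 and 83.6% by 3. The changed genes were drawn from those with a mean of at least 8 CPM, so these shares do not cover genes at lower levels. DESeq2 1.42.0, limma 3.58.1, other scalings and filters, an erythroid covariate, a replicate block and leaving out each library were alternatives. Counts of every library pair differed beyond sampling noise, the closest pair with a chi-square of 53.8 for each degree of freedom. Named pathway genes were, per role, the 2 with the smallest p and the most abundant. Marker genes, Dll4, Dll3, Hes2 and Hes5 were named after their values were seen.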

Additional observations from a re-analysis of the deposited data

How the results depend on the processing

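Of 126 recomputed log2 fold changes of the 9 tested Notch genes, 117 kept their sign. Notch3 ranged from -1.75 to -1.37, Heyl from -1.35 to -0.84, Dll1 from -2.99 to -0.13 and Jag1 from 0.74 to 2.03, and Hey1 reached -0.05 with the replicate block, each with its sign kept in all 14 alternatives. Signs turned for Notch1 (0.15 with limma-voom, and up to 0.30 when single libraries were left out, from -0.45), Notch2 (-0.37 to 0.019 when single libraries were left out, positive without LFD 3), Rbpj (-0.13 with the erythroid share), and Hes1 (-0.25 with the erythroid share, and -0.080 to 0.40 when single libraries were left out, negative without LFD 2, LFD 3 or HFD 2). The median of the other pathway genes turned to 0.0060 with limma-voom and to 0.011 with the replicate block, from -0.04, and DESeq2 called 1 of them. The cause of these turns was not tested. The number of all genes called was 5 with edgeR, 8 with no filter on low counts, 0 with the stricter filter (988 at an unadjusted p under 0.05), which asks for 10 counts in 4 libraries and so drops genes counted in the 3 HFD libraries alone, 361 with DESeq2, 26 with limma-voom, 1 with the erythroid share, 0 with the replicate block (1335 at an unadjusted p under 0.05) and 1 to 6 when single libraries were left out (1 without LFD 2, HFD 2, HFD 3 or HFD 4, and 3 without LFD 1). With the replicate block the median of all genes was 0.15, against 0.02. HFD had no library numbered 1, so LFD 1 was alone in its block and added nothing to the diet difference of that fit. Samples with the same replicate number did not deviate together (correlations of -0.10, 0.03 and -0.06 across genes). No pairing by replicate number was thus seen, and so few pairs cannot settle whether there was one. Of 9 neighbouring pairs in the order of levels 3 passed, and 0 passed with any library left out, where the smallest p that 6 libraries allow is larger.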
